A study of Mus musculus with 12 samples.

Results

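The collagen genes of the mouse spinal cord were followed across 4 groups of bulk RNA libraries. They were every gene of the deposited count table whose mouse symbol has the form Col, a number, the letter a and a number: 44 genes of 46078. The Ensembl identifiers of the table were matched to symbols, and Col4a3bp, a ceramide transfer protein gene with a similar symbol, was not a member. Spinal cord tissue of host strain C57BL6/cJ gave 12 libraries, 3 a group: non-injured cord; spinal cord injury without cells (SCI); SCI with transplanted syngeneic mesenchymal stem cells (MSC, stromal cells from a genetically matched donor); and SCI with transplanted allogeneic MSC (from an unmatched donor). All groups share the host strain, and no label names a mutant allele or transgene. The sources used here do not give age, sex, the donor strain, the kind of injury or the time of sampling. The labels do not say whether the 3 libraries of a group came from separate animals, so p-values measure the spread between these libraries, which may be technical.

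Collagens are the main proteins of connective tissue. Each is built from 3 chains that wind into a triple helix, which needs a repeat of triplets that each begin with glycine, because only glycine fits at the centre of the helix. Fibrillar collagens (types I, II, III, V, XI, XXIV and XXVII) form ropes. Fibril-associated collagens with interrupted helices (FACIT) sit on those ropes, collagen IV makes the sheet of basement membranes, collagen VI makes beaded filaments, and the multiplexins carry endostatin-like ends. In the uninjured cord collagen lies mainly in the meninges and around vessels. After injury fibroblast-lineage cells lay down a collagen-rich fibrotic scar beside the glial scar.

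The repeat can be read in the coding sequence. Below are 54 bases of the helix of the genes with the 3 highest levels per kilobase after injury, and of Col8a1, whose helix is short. The glycine codon that opens each triplet is in capitals (a glycine codon elsewhere in a triplet is not), and the bases come from GENCODE M21 on GRCm38, 5′ to 3′ on the coding strand.
Col1a1, whole exon 8 of 51, chr11:94939904-94939957, plus strand: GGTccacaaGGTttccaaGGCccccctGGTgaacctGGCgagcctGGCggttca
Col1a2, whole exon 8 of 52, chr6:4515481-4515534, plus strand: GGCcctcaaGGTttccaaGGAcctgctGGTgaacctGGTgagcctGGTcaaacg
Col3a1, whole exon 6 of 51, chr1:45325360-45325413, plus strand: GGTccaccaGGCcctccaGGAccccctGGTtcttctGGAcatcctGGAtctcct
Col8a1, inside exon 4 of 4, chr16:57628039-57628092, minus strand: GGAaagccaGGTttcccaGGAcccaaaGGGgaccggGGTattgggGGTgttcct
In the first 3 genes the 54 bases are a complete exon, whereas in Col8a1 they lie within a longer one. Exons of exactly 54 coding bases made up 41.2% to 55.0% of the coding exons of the 11 fibrillar genes. The same share was 6.15% to 44.4% in the 9 FACIT genes, 2.13% to 5.66% in the 6 collagen IV genes and 7.41% to 8.57% in the 6 collagen VI genes. The longest unbroken run of glycine triplets was 216 to 344 triplets in the fibrillar genes and at most 113 in the others. Fibrillar Col24a1 and Col27a1 had the shortest runs of their class, 216 and 217 triplets.

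Total counts were 8705942 to 26151928 per library, of which 11978 to 42076 fell on collagen genes. Levels are counts per 1000000 (CPM) of library totals scaled by TMM, a trimmed mean of ratios between libraries. The tissue label was checked against defining genes, read in all 12 libraries. These were neuronal Snap25 (1727 to 3735 CPM), myelin Mbp (9029 to 32912), astrocytic Gfap (1151 to 8155) and the motor neuron gene Chat (15.6 to 35.5). In SCI against non-injured cord, Snap25 was 1737 to 2145 against 3146 to 3735 CPM, and Chat 15.6 to 24.6 against 32.7 to 35.5. Gfap was 5758 to 6975 against 1151 to 2294 CPM, and Mbp overlapped between these groups. Some libraries stood apart in collagen. The 44 genes together reached 560.3, 748 and 835 CPM in the non-injured libraries, 2414, 1898 and 1852 in the SCI, 651, 692 and 1592 in the syngeneic and 1049, 2308 and 1941 in the allogeneic libraries, each in the order of replicates 1 to 3. Syngeneic replicates 1 and 2 thus lay within the non-injured range, while syngeneic replicate 3 lay above it and near the SCI libraries. Allogeneic replicate 1 lay between the non-injured and the SCI range. Non-injured replicate 1 was the lowest of all 12. Replicate numbers follow the order of the samples and have no other meaning.

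In non-injured cord the collagens with the highest levels per kilobase were not types I and III. Per kilobase of exon, Col11a2, a minor fibrillar chain of cartilage and other tissues, had the highest mean with 11.9 ± 6.3 CPM per kb (SD, n = 3), followed by Col4a2 (11.4 ± 1.32) and Col4a1 (9.04 ± 2.12), the chains of the common vascular basement membrane. Col16a1 (6.87 ± 1.17) and Col9a3 (6.56 ± 1.79), both FACIT chains, came next. Replicate 3 alone set the first place of Col11a2, which stood at 7.71, 8.92 and 19.2 CPM per kb against 9.96, 11.7 and 12.5 for Col4a2. The 3 libraries of each of these 5 genes overlapped those of its neighbour in the order, while Col4a2 was above Col16a1 and Col9a3 in every library. Col1a2 (4.34 ± 2.05), Col1a1 (3.66 ± 2.03) and Col3a1 (1.77 ± 0.888), the chains of collagens I and III, were lower. In SCI the same scale put Col1a1 first at 45.9 ± 12.2 CPM per kb, then Col1a2 at 28 ± 6.58 and Col3a1 at 27.2 ± 8.93, with Col4a1 next at 15.8 ± 2.99. Col11a2 stood eighth there, at 8.91 ± 1.11 CPM per kb. The order of genes depends on the length used, here the merged exons of all annotated transcripts. These held 12426 bases for Col1a2 and 6563 for Col1a1, although the coding sequences are similar in length (1372 and 1453 codons). Before division by length, Col1a2 exceeded Col1a1 in every SCI library (7212, 5478 and 5284 counts against 6431, 4740 and 4411). Levels per coding length were not computed.

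What injury without any cells did to the family was asked by setting SCI against non-injured cord. Calls are genes with an adjusted p below 0.05 in edgeR's quasi-likelihood test, with Benjamini-Hochberg adjustment over all 16527 genes that entered it. Of 42 collagen genes tested 25 rose, against 16.6% of all genes tested called higher, and 0 were called lower, against 9.26% of all genes (33 of the 42 had an unadjusted p under 0.05, against 38.4% of all genes). DESeq2 also called 25 higher and 0 lower (14.9% and 9.89% of all genes), and limma-voom 26 and 0 (16.7% and 8.96%). Values printed with a standard error (SE) in parentheses are log2 fold changes of the comparison described. The median log2 fold change of the 42 was 0.90, against 0.01 over all genes, and single genes ran from -0.81 to 3.95. The 3 SCI libraries lay above the 3 non-injured ones without overlap in 30 of the 42 genes (26.3% of all genes) and below in 3 (21.2%). Col13a1, Col28a1 and Col6a5 missed the filter's count minimum in at least 1 non-injured library and were tested because of the injured ones. Without them 22 of 39 rose, and the median log2 fold change was 0.81. Without non-injured replicate 1 the count was 17 higher, against 11.3% of all genes under that setting. In whole tissue, more cells of a type and more message per cell cannot be told apart.

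**Figure D1:**
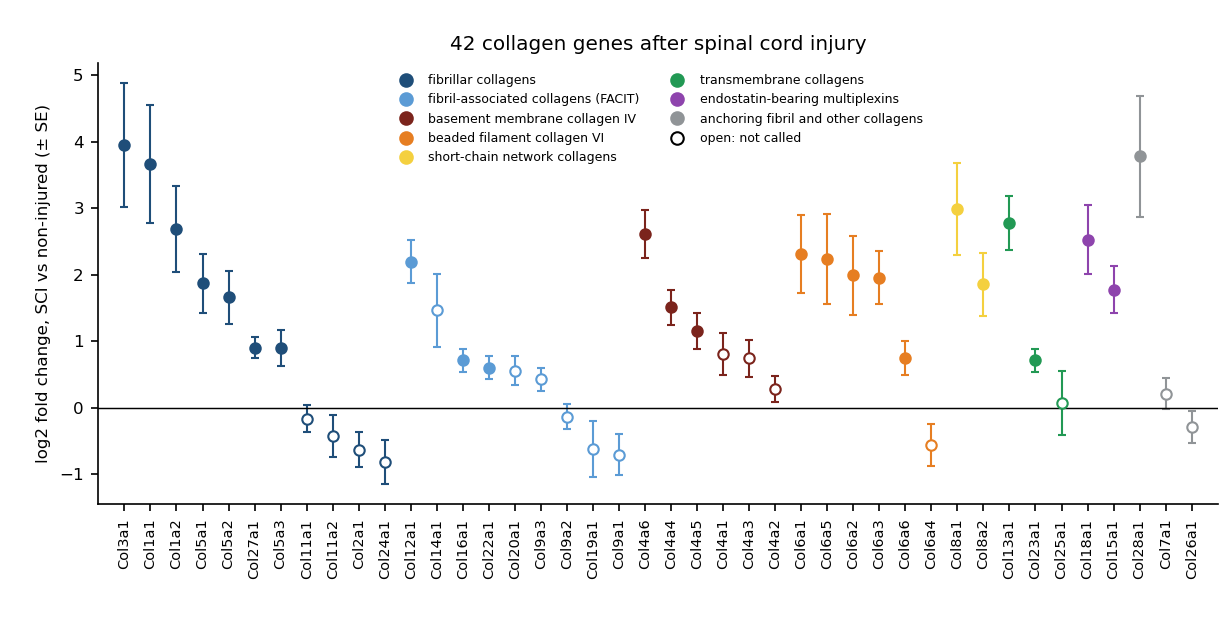
Log2 fold change between SCI and non-injured cord for the 42 collagen genes tested, with its standard error as the bar, ordered by structural class (colours) and by size within a class. Filled points are the 25 genes called higher; open points were not called, and the 9 points below 0 are all open.

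Of 11 fibrillar genes 7 rose, with a class median of 0.91. Col3a1 (ENSMUSG00000026043, chr1:45311538-45349706), the chain of collagen III of young scars and soft tissue, stood at 7.5, 20.9 and 23.8 CPM in the non-injured, 369, 218 and 216 in the SCI, 16.5, 21.3 and 178 in the syngeneic and 63.1, 294 and 269.7 in the allogeneic libraries. Its rise in SCI was the largest of the family (log2 fold change 3.95, SE 0.93, adjusted p 0.0103). Col1a1 (ENSMUSG00000001506, chr11:94936224-94953042), the chain present in 2 copies in each collagen I molecule in textbook stoichiometry, stood at 8.62, 32.1 and 31.3 CPM in the non-injured, 394, 260.3 and 250.1 in the SCI, 22.2, 31.4 and 243 in the syngeneic and 105, 349.5 and 282 in the allogeneic libraries. Every SCI library held at least 250.1 CPM and every non-injured library at most 32.1 (log2 fold change 3.66, SE 0.89, adjusted p 0.0117). Col1a2 (ENSMUSG00000029661, chr6:4504814-4541544), its partner, stood at 25.2, 63.3 and 73.4 CPM in the non-injured, 442, 301 and 299.6 in the SCI, 54.4, 71.7 and 287 in the syngeneic and 139, 446 and 365 in the allogeneic libraries. It too was higher in every SCI library than in any non-injured one (log2 fold change 2.69, SE 0.65, adjusted p 0.0117). Collagen V, which nucleates collagen I fibrils, rose in all 3 of its chains: Col5a1 (1.87, SE 0.44), Col5a2 (1.66, SE 0.40) and Col5a3 (0.90, SE 0.27). Col27a1, a fibrillar chain with a shorter helix, stood at 13, 14.5 and 17.1 CPM in the non-injured, 25.9, 27.7 and 29.99 in the SCI, 15.1, 15.1 and 16.8 in the syngeneic and 21, 30.6 and 20.8 in the allogeneic libraries. Its 3 SCI libraries lay close together, and its p was the smallest of the class (log2 fold change 0.91, SE 0.16, adjusted p 0.00205). The other 4 fibrillar genes had values below 0 and were not called: Col11a1 (-0.16, SE 0.21), Col11a2 (-0.42, SE 0.32), Col2a1, the collagen of cartilage (-0.63, SE 0.26), and Col24a1 (-0.81, SE 0.33). Col2a1 and Col24a1 were lower in every SCI library than in any non-injured one.

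**Figure D2:**
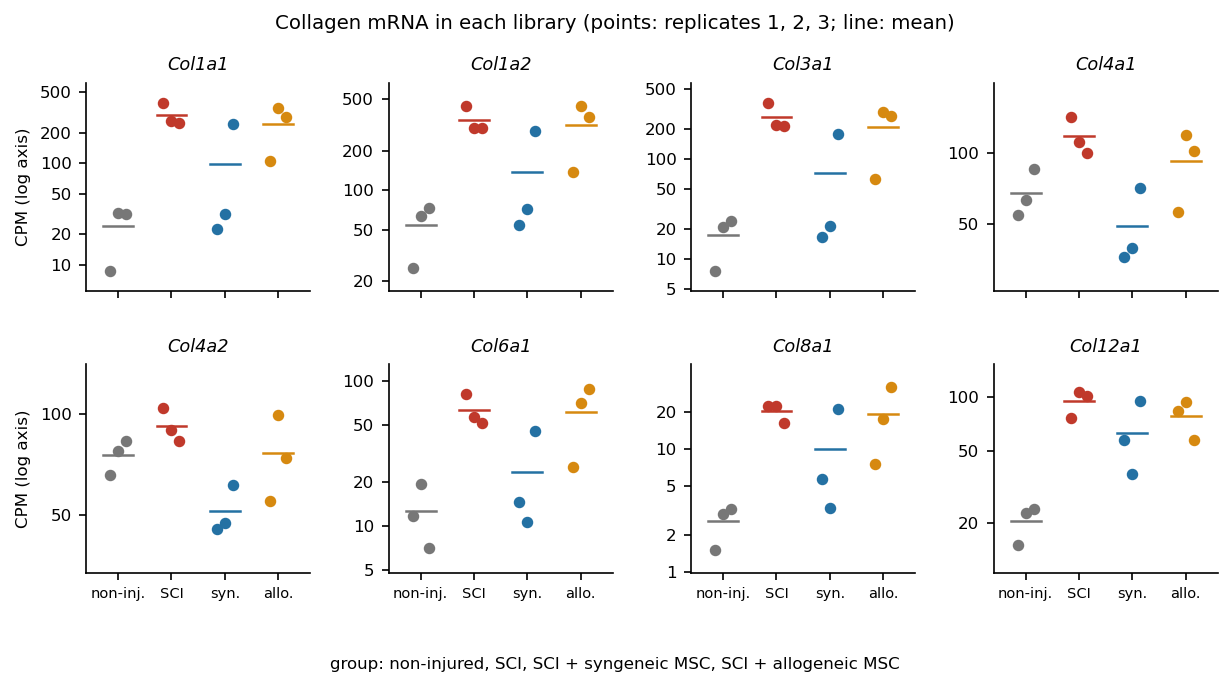
Levels of 8 collagen genes in every library, as CPM on a log axis, with points in the order of replicates 1 to 3 and a line at the group mean. In the syngeneic group replicate 3 sits above replicates 1 and 2 in all 8 genes; Col1a1 in SCI is 250.1 to 394 CPM against 8.62 to 32.1 in non-injured cord.

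Of 9 FACIT genes 3 rose (class median 0.56). Col12a1, which binds the surface of collagen I fibrils in tissues under load, stood at 15.2, 22.9 and 23.8 CPM in the non-injured, 76.5, 106 and 101 in the SCI, 57.4, 37.3 and 94.7 in the syngeneic and 83.1, 93.2 and 57.7 in the allogeneic libraries. All 9 libraries of injured cord lay above the 3 non-injured ones (log2 fold change 2.2, SE 0.32, adjusted p 0.000736, in SCI). Col16a1 stood at 41.4, 42.3 and 55.5 CPM in the non-injured, 75.6, 74.2 and 78.2 in the SCI, 41.6, 50.8 and 59.5 in the syngeneic and 62.3, 90.4 and 68.8 in the allogeneic libraries. It rose modestly in SCI (log2 fold change 0.71, SE 0.17, adjusted p 0.0105), and so did Col22a1, a collagen of tissue junctions (log2 fold change 0.60, SE 0.18, adjusted p 0.0266). Col14a1, a close relative of Col12a1, reached 1.47 without being called (SE 0.55, adjusted p 0.0696). Col20a1 (0.56, SE 0.22) and Col9a3 (0.43, SE 0.17) were not called either. The same held for Col9a2 (-0.13, SE 0.18), Col19a1 (-0.61, SE 0.42) and Col9a1 (-0.70, SE 0.31), whose values were below 0. The 3 chains of collagen IX, a partner of cartilage fibrils, thus had values on both sides of 0 and none was called.

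Collagen IV had fold changes above 0 in all 6 genes, of which 3 rose, and 5 of 6 separated fully. Differences between its chains were not tested. The 6 genes lie as 3 head-to-head pairs, each pair with its start sites close together and running apart on opposite strands: Col4a1 with Col4a2 on chromosome 8 (start sites at 11312826 on the minus strand and 11312805 on the plus strand, so that the first exons overlap), Col4a4 with Col4a3 on chromosome 1 (72 bases apart) and Col4a6 with Col4a5 on chromosome X (1309 bases apart). Col4a6, a chain of epithelial and smooth muscle basement membranes, stood at 1.7, 2.31 and 2.0 CPM in the non-injured, 13.5, 11.7 and 11.3 in the SCI, 3.71, 3.88 and 7.97 in the syngeneic and 6.03, 14 and 7.38 in the allogeneic libraries. It had the smallest p of the class (log2 fold change 2.61, SE 0.36, adjusted p 0.000583). Col4a4 stood at 1.01, 0.874 and 1.28 CPM in the non-injured, 3.43, 2.91 and 2.72 in the SCI, 1.01, 1.18 and 1.86 in the syngeneic and 1.88, 2.37 and 1.85 in the allogeneic libraries and rose in SCI (log2 fold change 1.51, SE 0.27, adjusted p 0.00218), and Col4a5 rose too (log2 fold change 1.15, SE 0.27, adjusted p 0.00958). Col4a1, at 54.2, 63.2 and 85 CPM in the non-injured, 143, 112 and 99.6 in the SCI, 35.8, 39.3 and 70.8 in the syngeneic and 55.8, 119 and 102 in the allogeneic libraries, was higher in each SCI library than in any non-injured one, but was not called (log2 fold change 0.81, SE 0.31, adjusted p 0.0785). Col4a2, at 65.9, 77.8 and 83 CPM in the non-injured, 104, 89.7 and 83.1 in the SCI, 45.4, 47.3 and 61.3 in the syngeneic and 55, 99.7 and 74 in the allogeneic libraries, differed least of the 6 (log2 fold change 0.29, SE 0.20, adjusted p 0.313). The lowest SCI library and the highest non-injured library of Col4a2 nearly met. Col4a3 was not called (log2 fold change 0.74, SE 0.28, adjusted p 0.0688). Its exons share 563 bases with an opposite-strand gene, and the sources used here do not state whether counting used strand. In all, 10 of the 44 collagen genes have exons shared with an opposite-strand gene and 3 with a same-strand gene, Col3a1 (141 bases) among them, so their values carry that uncertainty.

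Collagen VI, the pericellular beaded filament, rose in 5 of 6 genes (class median 1.97). Col6a1 stood at 11.8, 19.5 and 7.02 CPM in the non-injured, 81.1, 56.3 and 51.4 in the SCI, 14.6, 10.7 and 45.4 in the syngeneic and 25.6, 70.7 and 88.9 in the allogeneic libraries. Col6a2 stood at 9.16, 10.6 and 19.1 CPM in the non-injured, 58.5, 44.7 and 51.4 in the SCI, 13.8, 8.46 and 41.4 in the syngeneic and 18.9, 63.9 and 80.3 in the allogeneic libraries. Col6a3, the long chain that completes the heterotrimer with these 2, stood at 4.45, 6.43 and 5.79 CPM in the non-injured, 24.4, 18.2 and 21.8 in the SCI, 6.47, 6.54 and 16.9 in the syngeneic and 9.4, 21.4 and 19.97 in the allogeneic libraries. All 3 were above every non-injured library in every SCI library, and all 3 rose: log2 fold change 2.31, SE 0.59, adjusted p 0.0149 for Col6a1, 1.99, SE 0.60 for Col6a2 and 1.96, SE 0.39 for Col6a3. Col6a5, an alternative to the third chain, rose from under 1 CPM (0.154 to 0.562 CPM in non-injured cord, 1.15 to 1.87 in SCI; 2.24, SE 0.68). Col6a6 passed narrowly (log2 fold change 0.75, SE 0.26, adjusted p 0.050), and Col6a4 was not called (-0.56, SE 0.32). Of the short-chain network collagens, Col8a1, found in vessel walls and in the corneal endothelium, stood at 1.51, 3.0 and 3.28 CPM in the non-injured, 22.4, 22.3 and 16.2 in the SCI, 5.73, 3.35 and 21 in the syngeneic and 7.59, 17.5 and 32 in the allogeneic libraries. Col8a2, its partner chain, stood at 2.05, 3.44 and 1.13 CPM in the non-injured, 8.39, 7.03 and 8.22 in the SCI, 3.71, 3.35 and 7.77 in the syngeneic and 3.76, 7.11 and 11.6 in the allogeneic libraries. Both rose in SCI (log2 fold change 2.99, SE 0.69, adjusted p 0.00903 for Col8a1 and 1.85, SE 0.47 for Col8a2). The third of that class, Col10a1, the collagen of hypertrophic cartilage, held at most 7 counts in any library and was not tested.

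The remaining classes each held at least 1 gene that rose. Col13a1, a transmembrane collagen of cell-matrix junctions, stood at 0.503, 0.562 and 0.205 CPM in the non-injured, 2.39, 2.86 and 3.57 in the SCI, 1.49, 1.88 and 2.38 in the syngeneic and 1.56, 3.5 and 1.8 in the allogeneic libraries. Col23a1, of the same class, stood at 16.8, 24.3 and 27.5 CPM in the non-injured, 35.4, 35.6 and 41.3 in the SCI, 25.8, 27.7 and 36.5 in the syngeneic and 40.1, 46.4 and 44.5 in the allogeneic libraries. Both rose in SCI (log2 fold change 2.78, SE 0.41, adjusted p 0.000759 for Col13a1 and 0.71, SE 0.18 for Col23a1), while Col25a1, a neuronal transmembrane collagen, was not called (0.08, SE 0.48). The multiplexins Col18a1 and Col15a1, proteoglycans of basement membranes, both rose. Col18a1 stood at 8.35, 10.6 and 8.77 CPM in the non-injured, 63.2, 60.01 and 36.2 in the SCI, 11.3, 9.11 and 36.2 in the syngeneic and 20.6, 57.4 and 49.1 in the allogeneic libraries (log2 fold change 2.53, SE 0.51, adjusted p 0.00487, in SCI). Col15a1 stood at 10.2, 15.7 and 13.8 CPM in the non-injured, 49.6, 50.8 and 35.6 in the SCI, 13.7, 13.5 and 31.2 in the syngeneic and 27.3, 57.8 and 33.5 in the allogeneic libraries (log2 fold change 1.78, SE 0.36, adjusted p 0.00459). Each SCI library exceeded each non-injured one in both. Col28a1, a collagen known around Schwann cells of peripheral nerve, stood at 0.464, 0.812 and 1.03 CPM in the non-injured, 10.05, 15.4 and 5.73 in the SCI, 0.743, 1.06 and 7.9 in the syngeneic and 2.14, 11.1 and 7.2 in the allogeneic libraries. Its rise was the second largest of the family (log2 fold change 3.78, SE 0.91, adjusted p 0.0113), from about 1 CPM or less. Col26a1 stood at 4.52, 5.31 and 5.13 CPM in the non-injured, 4.84, 3.68 and 3.74 in the SCI, 2.67, 3.59 and 3.4 in the syngeneic and 2.72, 5.3 and 3.0 in the allogeneic libraries and was not called (log2 fold change -0.29, SE 0.24, adjusted p 0.433), nor was Col7a1, the anchoring fibril collagen of skin (0.22, SE 0.24). Col17a1, a transmembrane collagen of skin hemidesmosomes, was not tested, with summed counts of 4 in non-injured cord, 6 in SCI, 22 with syngeneic and 10 with allogeneic cells.

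Of the 25 calls, 14 held under all 12 alternatives computed for each. Col1a1 and Col1a2 lost theirs only with no filter on low counts (adjusted p 0.0552 and 0.0542). Col28a1 and Col8a2 lost theirs only without non-injured replicate 1 (0.0511 and 0.0544), and Col23a1 only without SCI replicate 3 (0.0510). Col6a1 lost its call in 3 alternatives: no filter, and without non-injured replicate 1 or 3. Col22a1, Col5a3, Col6a2, Col6a5 and Col6a6 each lost theirs in 5 to 9 of the 12, most of them fits without 1 library of either group.

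Summed over classes, the make-up of collagen message in SCI differed from that in non-injured cord. Fibrillar collagens took 42.2% ± 4.85 of collagen CPM in non-injured cord and 57.7% ± 3.36 in SCI (SD, n = 3). Collagen IV went from 23.4% ± 1.64 to 13.2% ± 0.359, although its summed level was 166 ± 29.2 CPM in non-injured cord and 269.6 ± 34.4 in SCI. FACIT genes took 17% ± 1.23 and 11.8% ± 2.15, and collagen VI 4.85% ± 0.624 and 6.82% ± 0.278. With syngeneic cells the shares were 46.5% ± 9.97 fibrillar, 14.5% ± 3.01 collagen IV, 19.2% ± 4.91 FACIT and 5.64% ± 1.29 collagen VI. With allogeneic cells they were 55.2% ± 6.71, 12.4% ± 1.42, 13.6% ± 5.21 and 7.4% ± 2.34. The mean FACIT share with syngeneic cells thus lay above that of non-injured cord, on the other side of it from SCI, by less than its SD. Sums are dominated by abundant and long genes. Col1a1, Col1a2 and Col3a1 together made 7.37, 15.6 and 15.4% of collagen CPM in the non-injured libraries and 49.9, 41 and 41.3% in the SCI libraries. In the syngeneic libraries the same share was 14.3, 18 and 44.5%, and in the allogeneic libraries 29.3, 47.2 and 47.3%. By this measure too, syngeneic replicates 1 and 2 sat with or just above the non-injured libraries and syngeneic replicate 3 within the SCI range. These are descriptions, with no test.

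**Figure D3:**
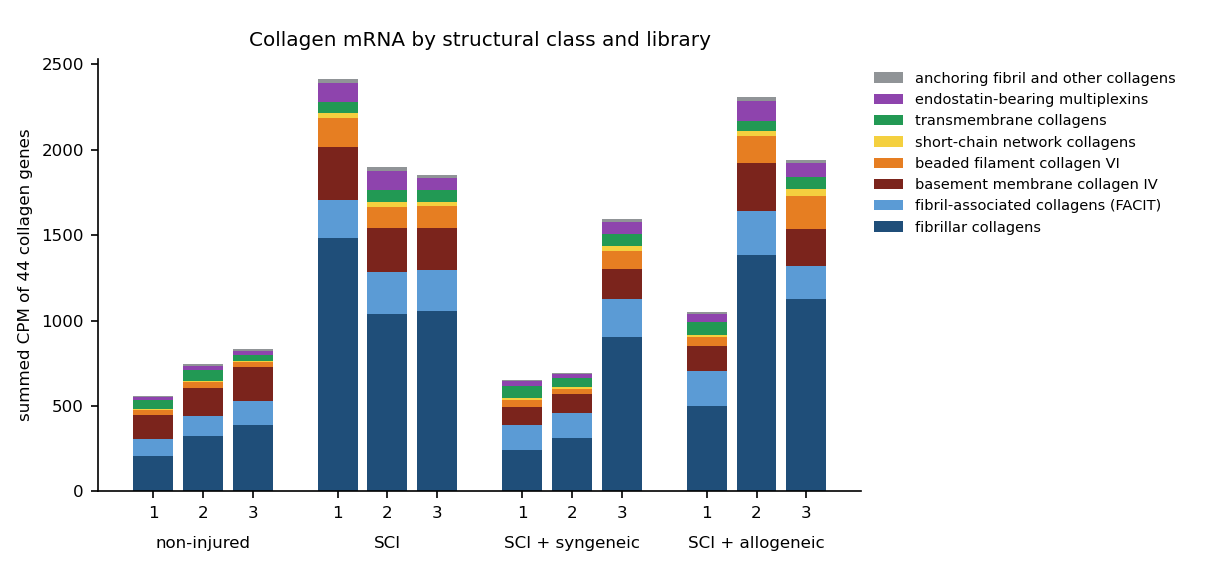
Summed CPM of the 44 collagen genes in each library, stacked by structural class (colours), for replicates 1 to 3 of each group. SCI libraries reach 1852 to 2414 CPM and non-injured libraries 560.3 to 835 CPM; syngeneic replicate 3 stands at 1592 CPM beside 651 and 692 CPM in its group.

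Of 9 ratios between related collagen genes, 4 separated SCI from non-injured cord and 5 overlapped. Among single genes, 26.3% of all tested separated above and 21.2% below in the same comparison. The share among ratios of other gene pairs was not computed, so the count of 4 is not read as a trait of collagens. The ratio of counts of 2 genes within a library does not depend on depth or scaling, and counts are not corrected for length, so only differences between libraries carry meaning. Col1a1 counts were 0.342, 0.507 and 0.426 times Col1a2 counts in non-injured cord and 0.892, 0.865 and 0.835 times in SCI. With syngeneic cells the ratio was 0.409, 0.438 and 0.848, and with allogeneic cells 0.755, 0.784 and 0.773. Only the first 2 syngeneic libraries lay in the non-injured range, while all 3 allogeneic libraries, including the low replicate 1, lay between non-injured cord and SCI. The ratio of Col4a1 to Col4a2 was 0.822, 0.813 and 1.02 in non-injured cord, 1.37, 1.24 and 1.2 in SCI, 0.789, 0.831 and 1.16 with syngeneic and 1.01, 1.2 and 1.37 with allogeneic cells. SCI was above non-injured cord in every library for this pair as well. Col4a5 to Col4a6, the most divergent pair, went from 9.07, 7.27 and 12.1 in non-injured cord to 3.15, 3.3 and 3.92 in SCI. Here all 9 libraries of injured cord lay below all non-injured ones, the syngeneic group at 5.07, 4.84 and 4.05 and the allogeneic group at 4.18, 3.25 and 3.73. Col15a1 to Col18a1, related genes whose chains do not share a molecule, was likewise below the non-injured range (1.22, 1.48 and 1.58) in every SCI library (0.785, 0.846 and 0.983). The other 5 ratios overlapped. In collagen VI, Col6a3 to Col6a2 was 0.485, 0.606 and 0.304 in non-injured cord and 0.417, 0.408 and 0.424 in SCI, inside the non-injured range. Col6a1 to Col6a2 spread widely in non-injured cord alone (1.29, 1.84 and 0.368), with replicate 3 low. Col5a1 to Col5a2 was 0.618, 0.814 and 0.906 in non-injured cord and 0.961, 0.909 and 0.882 in SCI, and Col3a1 to Col1a1 was 0.87, 0.652 and 0.762 in non-injured cord against 0.935, 0.837 and 0.862 in SCI. Col8a1 to Col8a2 was 0.736, 0.873 and 2.91 in non-injured cord against 2.66, 3.17 and 1.97 in SCI. These ratios were described without a test.

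**Figure D4:**
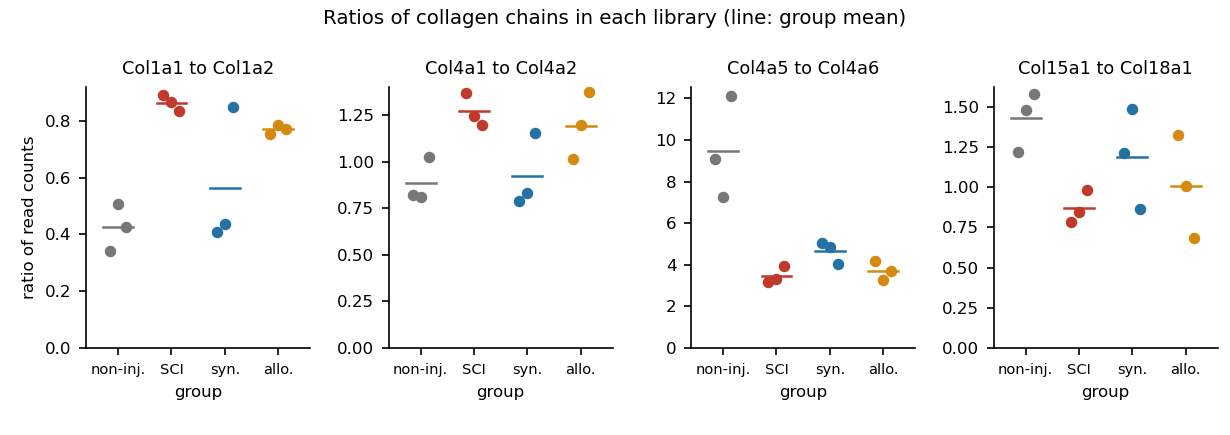
Ratios of read counts of related collagen genes in each library, for the 4 of 9 ratios that separated SCI from non-injured cord, with points in the order of replicates 1 to 3 and a line at the group mean. Col1a1 to Col1a2 and Col4a1 to Col4a2 are higher in all SCI libraries than in any non-injured one, and Col4a5 to Col4a6 is lower in all 9 injured libraries.

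Markers of cells that can make collagen, and of other cells, were set beside the collagen genes. Each count of higher genes below stands beside 16.6% of all genes called higher in SCI, and 38.4% with an unadjusted p under 0.05. Of 11 tested fibroblast markers that are not collagens, 8 rose in SCI and Thy1, which neurons also express, fell. Without Thy1 the list summed to 65.4, 113 and 114 CPM in the non-injured libraries and 509, 501 and 372 in the SCI libraries. With syngeneic cells the sum was 89.4, 125 and 368, and with allogeneic cells 162, 546 and 487. Syngeneic replicates 1 and 2 and allogeneic replicate 1 were the low libraries of the transplanted groups here, as in the collagen sums. None of the genes in this sum was at 0 counts in any library. With Thy1 included the sum was 736, 701 and 657 CPM in the non-injured and 955, 885 and 756 in the SCI libraries. It was then 633, 721 and 831 CPM with syngeneic and 632, 977 and 953 with allogeneic cells. Lum and Dcn, fibril-binding proteoglycans, are in this list and in the assembly list below. Meningeal markers rose in 5 of 10 genes, with 1 gene of the list at 0 in non-injured replicates 1 and 3. Their sum was 88.1, 144 and 173 CPM in the non-injured libraries and 284, 294 and 269 in SCI. With syngeneic cells it was 159, 203 and 302, and with allogeneic cells 167, 277 and 566. Unlike in the collagen sums, allogeneic replicate 1 lay within the non-injured range, and allogeneic replicate 3 was above every other library. Schwann cell markers rose in 2 of 7. Their sum was 147, 449.7 and 761 CPM in the non-injured libraries, 392.2, 437 and 422 in SCI, 237, 357 and 498 with syngeneic and 378, 811 and 634 with allogeneic cells, with none at 0. The non-injured range of this sum held all 3 SCI libraries. Pericyte and smooth muscle markers were called higher in 2 of 10, near the background, and endothelial markers in 0 of 10 (1 with an unadjusted p under 0.05; none fell). Astrocyte markers rose in 5 of 8. Microglia and macrophage markers rose in 8 of 8, and their sum was 170.4, 155 and 212 CPM in the non-injured libraries, 858, 1023 and 878 in SCI, 513, 396 and 863 with syngeneic and 836, 1143 and 1083 with allogeneic cells, with none at 0. Cartilage and bone markers rose in 3 of 9, and the osteoblast genes Ibsp and Bglap stayed under 1 CPM in every library. Skeletal muscle markers were called in 0 of 4 tested (1 with an unadjusted p under 0.05) and summed to under 10 CPM in every library. Markers used for cultured stromal cells rose in 5 of 10, again with Thy1 falling. The part of these cell types in the collagen values was not tested, and message of transplanted and host cells cannot be told apart in these counts.

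Lists for the making, assembly, sensing and breakdown of collagen also held genes that rose in SCI, beside 16.6% of all genes called higher and 9.26% called lower. Of 18 genes for folding and modification in the endoplasmic reticulum 10 rose and 0 fell, led by P4ha3 and P3h2, which hydroxylate proline (2.11, SE 0.22 and 1.42, SE 0.24), and Fkbp10, a collagen chaperone (1.48, SE 0.27). Of 17 genes for cleavage, assembly and crosslinking 10 rose and 0 fell, led by Fmod, which binds collagen fibrils (4.11, SE 0.57), and the crosslinking enzymes Loxl3 (1.43, SE 0.21) and Loxl2 (2.32, SE 0.41). Of 10 tested collagen receptors 8 rose and 0 fell, among them Lair1, an inhibitory receptor of leukocytes (2.18, SE 0.25), the integrin Itga11 (1.87, SE 0.30) and the receptor kinase Ddr2 (2.24, SE 0.38). Of 13 genes for breakdown, a list that includes the inhibitors Timp1, Timp2, Timp3 and Timp4, 7 rose and Mmp15 fell. Timp1, an inhibitor of matrix proteases, stood at 0.193, 0.25 and 0.82 CPM in the non-injured, 29.5, 24 and 24.4 in the SCI, 10.6, 8.82 and 24 in the syngeneic and 17.7, 30.6 and 32.8 in the allogeneic libraries (log2 fold change 5.96, SE 0.54, adjusted p 0.000111, in SCI). The collagenase Mmp14 (2.01, SE 0.33) and the inhibitor Timp3 (0.94, SE 0.18) also rose. None of the 4 lists had a gene called between any of the injured groups. Between syngeneic cells and SCI the count with an unadjusted p under 0.05 was 6 of 18 for folding, 7 of 17 for assembly, 7 of 10 for receptors and 5 of 13 for breakdown, against 13.5% of all genes. Among the 12 genes named here Mmp14 had the smallest p in that comparison (log2 fold change -1.58, SE 0.32, adjusted p 0.155).

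What the matched cells changed was asked by setting the syngeneic libraries against SCI alone. No collagen gene was called in either direction in edgeR's test, against 0.00605% of all genes called higher and 0.0303% called lower, though 20 of 42 had an unadjusted p under 0.05 (13.5% of all genes). DESeq2 called 5 lower, against 0.569% of all genes: Col27a1, Col5a3, Col4a1, Col4a2 and Col4a4; limma-voom called 0. The values lay on 1 side: 36 of 42 fold changes were below 0, with a median of -0.80 against 0.00 over all genes. In 24 of the 42 genes every syngeneic library was below every SCI library (11.5% of all genes), and in 0 was every one above (12.2%). By class, that separation held in 8 of 11 fibrillar, 6 of 6 collagen IV, 4 of 6 collagen VI and 2 of 9 FACIT genes. In collagen IV it included Col4a1 (log2 fold change -1.28, SE 0.31, adjusted p 0.25) and Col4a2 (log2 fold change -0.85, SE 0.20, adjusted p 0.231), which injury alone had not moved past the threshold. Syngeneic libraries held 45.4, 47.3 and 61.3 CPM of Col4a2, below the 65.9, 77.8 and 83 CPM of non-injured cord as well as the 104, 89.7 and 83.1 CPM of SCI. Of all 42 genes Col27a1 had the smallest p (log2 fold change -0.83, SE 0.16, adjusted p 0.117). Its 3 syngeneic libraries lay close together, at 15.1, 15.1 and 16.8 CPM.

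For most other genes the syngeneic group was split. Col3a1 showed 16.5, 21.3 and 178 CPM in its 3 libraries, so that its difference from SCI was large and uncertain (log2 fold change -1.9, SE 0.85, adjusted p 0.365). The same held for Col1a1 (log2 fold change -1.61, SE 0.81, adjusted p 0.401), Col1a2 (-1.34, SE 0.62) and Col28a1 (-1.75, SE 0.79). Among the 25 genes that rose in SCI, the median of log2 (CPM + 0.1) above the non-injured mean was 0.15 and 0.25 in syngeneic replicates 1 and 2 and 1.74 in replicate 3. In the SCI libraries it was 2.04, 1.85 and 1.97. These genes were chosen for being high in SCI, so the SCI values are a description only. Without syngeneic replicate 3, edgeR called 22 collagen genes lower than SCI, against 4.76% of all genes under that setting. They included Col3a1 (-3.86, SE 0.70, adjusted p 0.0193), Col1a1 (-3.52, SE 0.64, adjusted p 0.0193), Col18a1 (-2.41, SE 0.41, adjusted p 0.0173) and Col4a4 (-1.49, SE 0.26, adjusted p 0.0188). That fit leaves 2 syngeneic libraries, and no label marks replicate 3 as different from them. Replicate 3 stood out by these same collagen values, so the calls of that fit are a description and no separate support. Without syngeneic replicate 1, or without replicate 2, 0 of all genes tested were called in either direction against SCI. Syngeneic replicates 1 and 2 were the low libraries of their group also in fibroblast, meningeal and Schwann cell marker sums, given above. The split was not confined to these lists. It was also seen in microglia and macrophage markers (513, 396 and 863 CPM) and astrocyte markers (9974, 8182 and 12322 CPM). Each list for the making, assembly, sensing or breakdown of collagen showed it too. Endothelial sums (380, 462 and 403 CPM) and pericyte and smooth muscle sums (303, 349 and 330 CPM) did not.

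**Figure D5:**
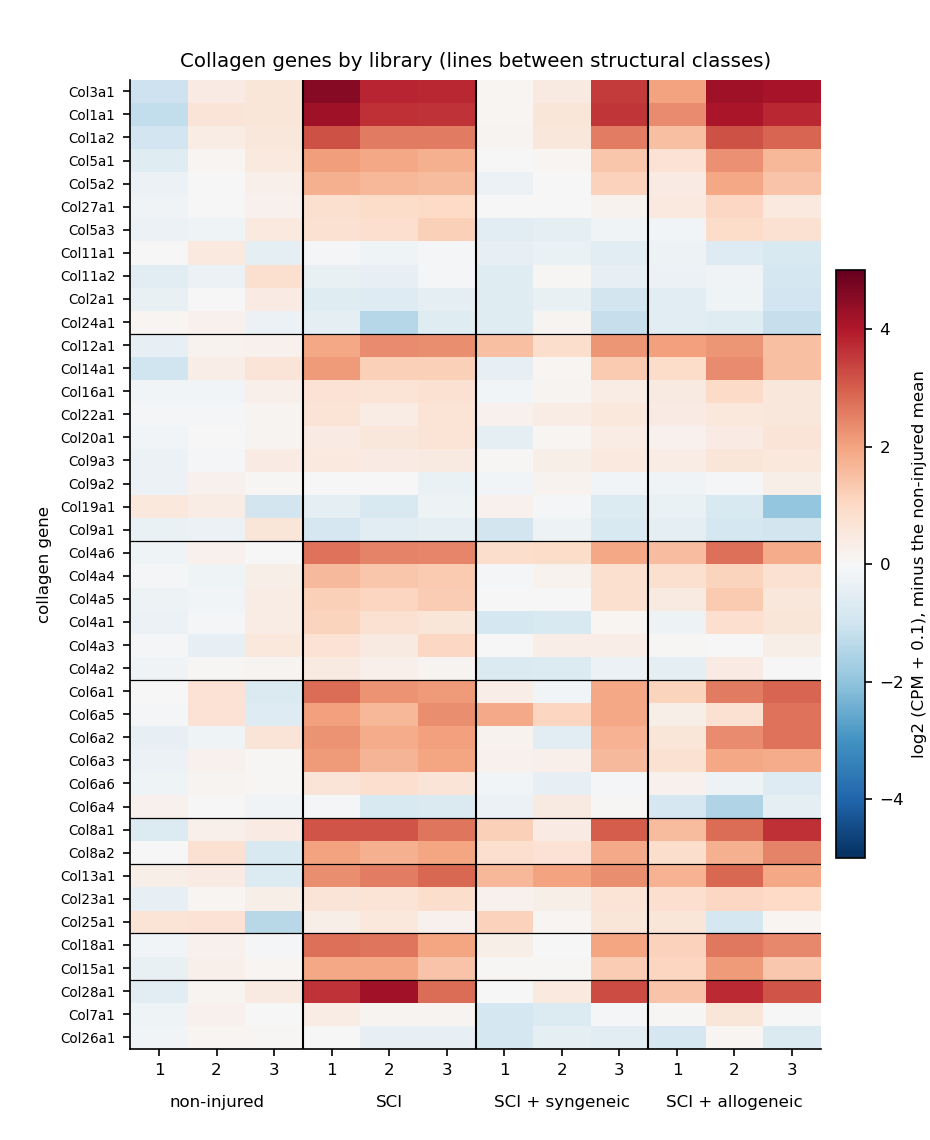
Level of the 42 tested collagen genes in each library relative to the mean of the non-injured libraries, as differences of log2 (CPM + 0.1), with red above and blue below that mean and lines between structural classes and groups. Syngeneic replicates 1, 2 and 3 lie below the range of the SCI libraries in 35, 34 and 25 of the 42 genes, and allogeneic replicates 1, 2 and 3 in 32, 10 and 21. The same count over all genes was not computed.

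Some genes lay above non-injured cord also in syngeneic replicates 1 and 2, although replicate 3 was the highest of its group in Col12a1 and Col13a1 too. Col12a1 and Col13a1 stayed above non-injured cord in all 3 syngeneic libraries, and they were the 2 collagen genes called higher in syngeneic against non-injured cord (log2 fold change 1.62, SE 0.31, adjusted p 0.0118 for Col12a1 and log2 fold change 2.15, SE 0.41, adjusted p 0.0106 for Col13a1; 4.92% of all genes called higher). DESeq2 called 3 (6.65% of all genes) and limma-voom 2 (3.44%). The count called higher and the count separated above, given next, were near the shares over all genes and do not set collagens apart. Col13a1 and Col6a5 were tested because of the injured libraries. All 3 syngeneic libraries lay above all non-injured ones in 7 of 42 genes (13.7% of all genes), Col12a1, Col13a1, Col22a1, Col4a6, Col6a3, Col6a5 and Col8a1, and below in 3 (7.18%), Col26a1, Col2a1 and Col4a2. Neither call held in the fit of only these 2 groups (adjusted p 0.0799 for Col12a1 and 0.0628 for Col13a1), and Col12a1 also lost its call without non-injured replicate 1 (0.0832). Against SCI their values with syngeneic cells were not called (-0.58, SE 0.30 for Col12a1 and -0.63, SE 0.35 for Col13a1). Whether their change differed from that of the other collagens was not tested.

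With allogeneic cells 0 collagen genes were called against SCI, where 0.169% of all genes were called higher and 0.0182% lower, and 3 of 42 had an unadjusted p under 0.05, against 2.94% of all genes (DESeq2 and limma-voom: 0 each). The median was -0.26, and 34 of 42 fold changes were below 0. Every allogeneic library lay below every SCI library in 4 genes (3.29% of all genes), and in 0 above (4.2%). Those 4 were Col6a6 (log2 fold change -0.97, SE 0.27, adjusted p 0.57), Col4a3 (-0.66, SE 0.28), Col4a4 (-0.59, SE 0.26) and Col11a1 (-0.44, SE 0.21). Col1a1 (-0.30, SE 0.79) and Col3a1 (-0.36, SE 0.82) had values below 0 that turned above 0 without allogeneic replicate 1 (0.068 and 0.077), the library with the lowest Col1a1 of the 3, 105 CPM. Against non-injured cord 20 collagen genes were called higher with allogeneic cells, against 16.7% of all genes, and 0 lower, against 8.17%. Every allogeneic library was above every non-injured one in 23 of 42 genes (21.1% of all genes) and below in 3 (15.9%), Col24a1, Col6a4 and Col9a1. This comparison uses the same non-injured libraries as that of SCI. It also holds Col13a1, Col28a1 and Col6a5, which were tested because of the injured libraries. The largest fold changes were those of Col3a1 (3.59, SE 0.92), Col1a1 (3.36, SE 0.88), Col28a1 (3.14, SE 0.91) and Col8a1 (2.9, SE 0.69). Of these 4, Col8a1 held its call under all 12 alternatives, while Col3a1, Col1a1 and Col28a1 lost theirs in 2, 3 and 6. Without non-injured replicate 1 the count was 8, against 11.9% of all genes, and with no filter on low counts it was 11, against 8.56%.

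Syngeneic and allogeneic cells were also compared directly. No collagen gene was called, against 0.0182% of all genes called higher and 0.593% called lower with syngeneic cells, and 17 of 42 had an unadjusted p under 0.05 (14.4% of all genes). DESeq2 called 2 lower, against 1.71% of all genes, and limma-voom 0. Fold changes were below 0 in 34 of 42 genes, with a median of -0.56 against 0.02 over all genes. Every syngeneic library was below every allogeneic one in 5 genes (7.03% of all genes): Col27a1 (log2 fold change -0.62, SE 0.16, adjusted p 0.147), Col5a3 (log2 fold change -0.98, SE 0.28, adjusted p 0.189), Col16a1 (-0.54, SE 0.17), Col7a1 (-0.77, SE 0.24) and Col23a1 (-0.54, SE 0.18). Col6a4 was the 1 gene with the reverse separation (1.0, SE 0.33; 5.19% of all genes), at 1.18, 2.04 and 1.54 CPM with syngeneic and 0.778, 0.451 and 1.01 with allogeneic cells. Col1a1 (-1.32, SE 0.81) and Col3a1 (-1.55, SE 0.84) overlapped, since syngeneic replicate 3 exceeded allogeneic replicate 1 in both. Without syngeneic replicate 3, 18 collagen genes were called lower than with allogeneic cells, against 6.73% of all genes. Here too the library left out stood apart by its collagen values, so this count is a description only.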

How the data were processed

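RNA of 12 spinal cord libraries was read as stranded poly(A) mRNA libraries (TruSeq), per the labels' protocols. Among the tools listed, without role or order, in the submitters' processing notes are the aligner STAR 2.5.1 and the counter featureCounts 1.5.1, with build GRCm38 and also Trim Galore 0.4.1 and StringTie 1.3.3. The sources used here do not state whether counting used strand. The deposited values are raw read counts per gene, not normalized by the authors. From them, edgeR 4.0.16 in R 4.3.3 (filterByExpr with a minimum count of 10 and total of 15, TMM, robust quasi-likelihood test of all 12 libraries, 8 residual degrees of freedom) tested 16527 genes. The adjusted p threshold was 0.05 by Benjamini-Hochberg. The standard error (SE) is the size of the log2 fold change divided by the root of its F statistic. DESeq2 1.42.0, limma-voom (limma 3.58.1), other scalings, no filter, 2-group fits and leaving out each library were alternatives. Per-kilobase levels use merged exons of GENCODE M21. All members are named. Values in every library are given for 8 chains of collagens I, III, IV and VI and for the 2 genes with the smallest p of each structural class, 21 genes in all; machinery genes named are the 3 with the smallest p of each list. The members and lists were chosen with earlier results of these data known. An item of the marker lists is not reported here, and its list was summed and counted without it.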

Additional observations from a re-analysis of the deposited data

Results flagged for a closer look

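Col17a1, a transmembrane collagen too low to be tested, was flagged because every syngeneic library lay above every SCI and non-injured library. It had 22 counts over the 3 syngeneic libraries (12, 5 and 5), against 6 in the SCI, 4 in the non-injured and 10 in the allogeneic libraries. Each syngeneic library held more counts than any SCI or non-injured library. Scaled for depth, the syngeneic sum was 3.04 times that of SCI (95% exact interval of counting error 1.195 to 9.16), 5.37 times that of non-injured cord (1.82 to 21.4) and 1.61 times that of the allogeneic libraries (0.73 to 3.80). In edgeR's test with no filter on low counts the difference from SCI was not called (log2 fold change 1.57, SE 0.69, adjusted p 0.539), nor was that from non-injured cord (log2 fold change 2.26, SE 0.74, adjusted p 0.134). These intervals cover counting error only. Those against SCI and non-injured cord use the same values that led to the flag, so they describe the gene and do not test it. Allogeneic replicate 3 held 8 of the 10 allogeneic counts, more than syngeneic replicate 2 or 3.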

How the results depend on the processing

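No paired analysis was possible because the labels give no replicate numbers that libraries of different groups share. The counts of collagen genes kept within 1.5 times of the reported ones under the 6 alternatives that keep all libraries of the groups compared, with these exceptions. Genes lower with syngeneic cells numbered 5 against SCI (0.569% of all genes) and 2 against allogeneic cells (1.71%) in DESeq2. Genes higher with syngeneic cells than in non-injured cord numbered 0 in the 2-group fit (1.03% of all genes). Genes higher with allogeneic cells than in non-injured cord numbered 11 with no filter on low counts (8.56% of all genes). In that comparison 1 gene was lower with RLE size factors (8.63%), with no filter (4.86%) and in DESeq2 (8.57%). The cause of these differences was not tested. Leaving out 1 library at a time, 17 to 24 genes were higher in SCI than in non-injured cord (11.2% to 15.9% of all genes). With syngeneic cells 1 to 4 were higher (2.04% to 8.18%) and 0 to 1 lower (0.0474% to 2.27%) than in non-injured cord. With allogeneic cells 8 to 24 were higher (11.9% to 18.1%) and 0 to 2 lower (3.36% to 9.57%) than in non-injured cord. For syngeneic cells the ranges were 0 to 22 genes lower than SCI (0% to 4.76% of all genes) and 0 to 18 lower than with allogeneic cells (0.143% to 6.73%). The upper ends were those without syngeneic replicate 3. None was called between allogeneic cells and SCI. Mean summed collagen levels ranged from 654 to 791 CPM in non-injured cord, 1875 to 2156 in SCI, 672 to 1142 with syngeneic and 1495 to 2125 with allogeneic cells. Values that changed sign when 1 library was left out, with their ranges, were those of Col11a1 (-0.39 to 0.10, above 0 without non-injured replicate 2), Col11a2 (-0.658 to 0.082, above 0 without non-injured replicate 3) and Col25a1 (-0.37 to 0.36, below 0 without SCI replicate 2 or non-injured replicate 3) in SCI against non-injured cord. Allogeneic cells against SCI gave -0.635 to 0.068 for Col1a1 and -0.681 to 0.077 for Col3a1, above 0 without allogeneic replicate 1. With 3 libraries a group, the spread between libraries limits the precision of most values, and counting error that of Col10a1 and Col17a1.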
